A study of Homo sapiens with 16 samples.

Results

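The genes described here are 3 myeloid growth factor receptors (CSF1R, CSF3R and CSF2RB) and 6 genes that cytokine receptors switch on through the transcription factor STAT5 and its relatives (CISH, SOCS1, SOCS2, SOCS3, PIM1 and PIM2). They were taken by gene symbol, from a list drawn up with earlier results of these data known, and all 9 were found among the 60603 genes of the count table. The study sequenced RNA from 16 libraries of 2 leukaemia lines of human myeloid origin: SKNO-1, which carries the RUNX1-RUNX1T1 fusion, and the monocyte-like U-937. Each line received DMSO (the solvent control), all-trans retinoic acid (ATRA, which activates retinoic acid receptors), Corin (an inhibitor of the CoREST complex that blocks the demethylase LSD1 and histone deacetylases) or ATRA together with Corin, for 24 h at 0.1 µM of each agent. There were 2 libraries in each of the 8 groups. Both lines grew in RPMI1640 with serum, and all 4 SKNO-1 groups, controls included, also had GM-CSF at 10 ng/mL in the medium, whereas U-937 had none. A difference between the lines therefore cannot be told apart from the effect of added GM-CSF. Each line is a single established line, and the labels do not say that replicates were separate cultures, so p-values measure only the spread between these libraries.

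GM-CSF, IL-3 and IL-5 signal through CSF2RB, the beta chain that their receptors share, while CSF2RA is the chain that gives GM-CSF its specificity. G-CSF signals through CSF3R, and CSF1R is the receptor tyrosine kinase for M-CSF and IL-34 that marks the monocyte and macrophage lineage. CSF2RB and CSF3R work through JAK kinases, which phosphorylate STAT5 and STAT3. The activated STATs then induce inhibitors of the same receptors, which makes a negative feedback loop: CISH and SOCS2 are typical STAT5 targets, SOCS3 is a typical STAT3 target that limits CSF3R signalling, and SOCS1 blocks JAK kinases directly and is strongly induced by interferon. PIM1 and PIM2 are serine/threonine kinases that are active as soon as they are made, and they favour survival of leukaemic cells. Their activity thus depends largely on the amount of protein, which was not measured here.

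CISH is shown by sequence because it was the one member whose upstream window held copies of the STAT5 motif. RefSeq windows of 250 bases upstream of the start (GRCh38.p14) were at hand for 7 of the 9 members, in 10 windows; CSF2RB and SOCS2 had no entry. The motif searched was TTCNNNGAA, the core site of STAT5 dimers, which is its own reverse complement, so that both strands are covered. CISH held 4 matches, which start 241, 230, 129 and 112 bases before the transcription start. The inner pair lies in chr3:50611775-50611907 (minus strand, 133 bases ending next to the start). The outer pair lies in chr3:50611996-50612015 (minus strand, 20 bases), where GENCODE 44 annotates a 5′ UTR exon of the gene MAPKAPK3 on the plus strand. Capitals mark the matches.
CISH inner stretch: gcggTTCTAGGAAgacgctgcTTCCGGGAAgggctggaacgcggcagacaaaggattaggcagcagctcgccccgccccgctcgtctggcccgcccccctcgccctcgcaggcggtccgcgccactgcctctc
CISH outer pair: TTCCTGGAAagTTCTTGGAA
Of all 35116 RefSeq upstream windows of that length, 6.57% held at least 1 match, 0.356% held more than 1, and 0.0142% held 4 or more. The windows of CSF1R, CSF3R, SOCS1, SOCS3, PIM1 and PIM2 held none, which says only that these letters are not in those 250 bases.

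Counts summed to 32.8 to 37.8 M per library in SKNO-1 and 28.4 to 37.6 M in U-937. Most marker genes separated the lines as labelled, with RUNX1T1 at 92.0 to 148 CPM (counts scaled for library size) in SKNO-1 and at most 0.0344 in U-937, and with HOXA9 and HOXA10 at 0 in all SKNO-1 libraries. LYZ, the lysozyme gene taken as a U-937 marker, did not separate them across treatments. It had 306 to 389 CPM in SKNO-1 with Corin or both agents and 216 and 244 CPM in U-937 DMSO. Between the DMSO groups it did separate them, at 59.5 and 64.2 CPM in SKNO-1. The myeloid genes CD33, SPI1 and CEBPA were present in both lines, while CD34 reached at most 1.88 CPM in SKNO-1 and MPO at most 0.469 CPM in U-937. Markers of T cells, red cells, platelets, epithelium and fibroblasts summed to at most 0.849 CPM in any library. The SKNO-1 DMSO pair stood apart: the SD of the log2 difference between its libraries was 0.361 over well-expressed genes, against 0.108 to 0.208 in the other 7 groups, and that difference followed GC content (Pearson r = 0.785 over 9354 genes, which are not independent). Every SKNO-1 comparison with DMSO rests on this pair. Many of the results that changed without either library or with a GC trend removed are named where they occur, but not all. These checks were run only for the myeloid receptors and STAT-induced genes listed at the start. The SKNO-1 calls of SOCS2-AS1 and of the wider pathway genes were not checked in this way.

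**Figure D1:**
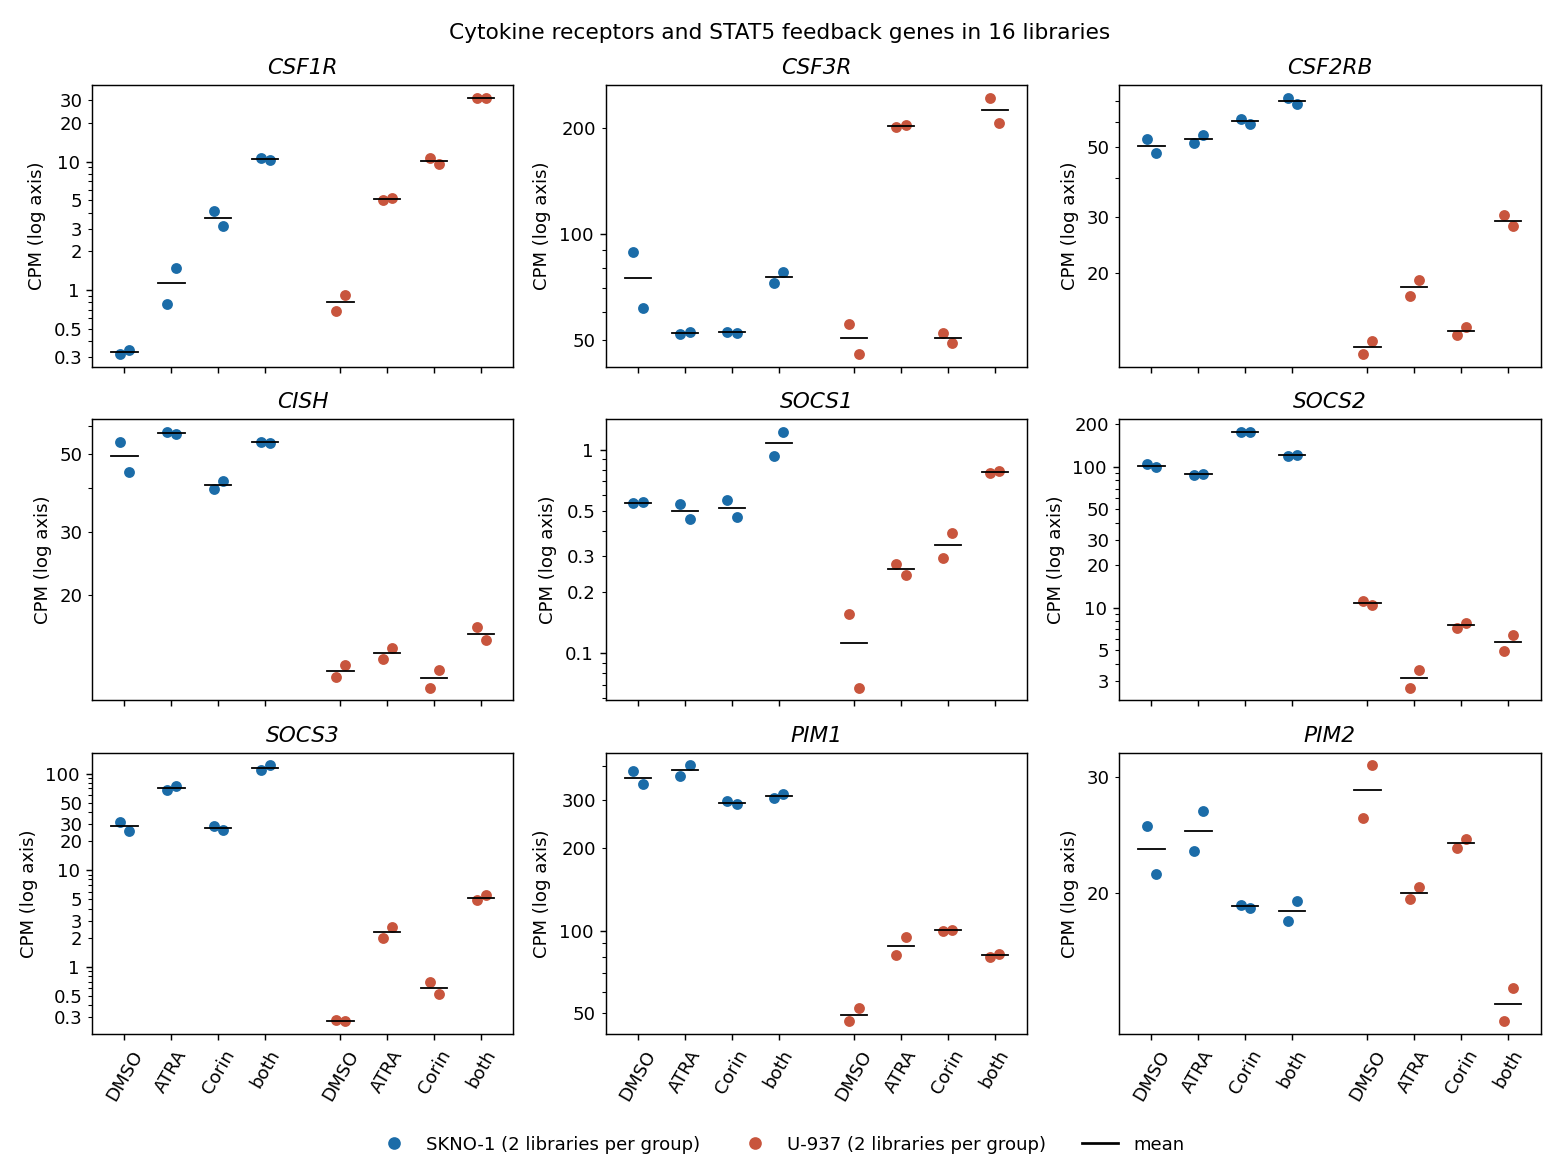
CPM (log axis, scale differs between panels) of each of the 9 genes in all 16 libraries; points are libraries and bars are group means. CSF1R climbs from 0.318 and 0.342 CPM in SKNO-1 DMSO to 10.6 and 10.2 with both agents, and CISH, SOCS2, SOCS3 and PIM1 lie lower in all U-937 libraries than in all SKNO-1 libraries.

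In untreated cells 5 of the 6 STAT-induced genes, all but PIM2, were lower in U-937 than in SKNO-1. Of the 9 genes, 7 were lower in U-937 DMSO than in SKNO-1 DMSO and 1, CSF1R, was higher at an adjusted p under 0.05. The test, here and throughout unless another is named, was the quasi-likelihood test of edgeR, its p-values adjusted by Benjamini-Hochberg over all genes. Of all 19872 genes tested, 64.8% were called, 31.7% higher and 33.1% lower in U-937. The median log2 difference of the 9 genes was -2.24, against -0.01 over all genes. In a bulk sample, fewer cells of a kind and less RNA per cell cannot be told apart.

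SOCS3 differed most. It had 31.6 and 25.1 CPM in the SKNO-1 DMSO libraries and 0.282 and 0.271 CPM in U-937, where the counts were 9 and 8, so it was 112-fold lower (log2 difference -6.80, SE 0.213, adjusted p = 1.43e-15). SOCS2 stood at 105 and 99.2 CPM against 11.1 and 10.4, 10.4-fold lower in U-937 (adjusted p = 4.56e-15). PIM1 stood at 383 and 342 CPM against 46.7 and 52.3, 7.98-fold lower (adjusted p = 2.25e-15). For these 3 genes the groups lie far apart, with no U-937 library near a SKNO-1 library.

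CISH had 54.0 and 44.5 CPM in SKNO-1 and 11.7 and 12.6 CPM in U-937, which is 4.42-fold lower (log2 difference -2.14, SE 0.109, adjusted p = 1.79e-12). The receptor chain CSF2RB was lower by a similar factor, 4.73-fold, at 53.2 and 48.0 CPM against 11.1 and 12.2 (adjusted p = 3.28e-13). SOCS1 was sparse in both, with 19 and 21 counts in SKNO-1 and 5 and 2 counts in U-937 (log2 difference -2.40, SE 0.496, adjusted p = 0.000308). SOCS1 and SOCS3 had under 10 counts in both U-937 DMSO libraries and passed the filter on low counts through other groups. That these genes were tested is therefore not independent of their difference. The remaining receptors moved less, CSF3R with a log2 difference of -0.69 (SE 0.128, adjusted p = 0.000119) and CSF1R with 1.15 (SE 0.357, adjusted p = 0.00869). The CSF1R call was lost without U-937 DMSO replicate 2, with an adjusted p of 0.0688. PIM2 did not pass the test, with a log2 difference of 0.17 and a 95% interval of -0.08 to 0.42.

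The STATs upstream of these genes were lower in U-937 as well, STAT5A by a log2 difference of -1.25 (SE 0.103, adjusted p = 3.02e-09) and STAT5B by -1.45 (SE 0.0821, adjusted p = 9.76e-12). CSF2RA, the specific chain of the GM-CSF receptor, went the other way, with a log2 difference of 0.94 (SE 0.144, adjusted p = 1.27e-05). The table lists identical counts for CSF2RA at its copies on X and Y, and only the X entry was used. CSF2, the gene for GM-CSF itself, had 0 counts in all 16 libraries, which allows up to 3 counts, or 0.0793 to 0.106 CPM, in a library. The cells thus held no detectable RNA for the cytokine that was added to the SKNO-1 medium.

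Compared per length, in the authors' deposited TPM values (transcript abundance scaled for length and library, mean of 2 libraries), PIM1 was the most abundant of the 9 genes in SKNO-1 DMSO at 180 TPM, followed by SOCS2 at 55.7 and CSF3R at 31.3 TPM. CISH at 12.3, PIM2 at 11.5, CSF2RB at 9.10 and SOCS3 at 9.09 TPM followed, and each of these overlaps the next in its 2 libraries. SOCS1 at 0.405 and CSF1R at 0.0800 TPM were lowest. In U-937 DMSO the first places went to PIM1 at 27.9 and CSF3R at 25.2 TPM, whose libraries overlap, ahead of PIM2 at 15.7, SOCS2 at 6.82, CISH at 3.41 and CSF2RB at 2.43 TPM. CSF1R at 0.330 TPM came next, and SOCS3 at 0.100 and SOCS1 at 0.0950 TPM were last and overlap. With ATRA, CSF3R took first place in U-937 at 83.8 TPM, and with both agents it was first at 77.1 TPM; PIM1 stayed first in all 4 SKNO-1 groups.

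How many of the 9 genes responded differed between lines and agents. With ATRA alone, 2 of 9 were called in SKNO-1, both higher. Of all 17479 genes tested there, 6.76% were called, 2.96% higher and 3.79% lower. For U-937 the same agent gave 7 calls, 5 of them upward and 2 downward, where 41.8% of 17717 genes were called, 21.7% higher and 20.1% lower. Corin alone gave 5 calls in SKNO-1, of which 3 were rises and 2 were falls, beside 37.9% of all genes (20.5% higher, 17.3% lower). It gave 2 calls in U-937, both rises, beside 12.9% of all genes (8.55% higher, 4.4% lower). With ATRA and Corin together, SKNO-1 had 6 calls, 5 rises and 1 fall, beside 46.7% of all genes (24.7% higher, 22% lower). All 9 genes were called in U-937 with the pair, 7 rises and 2 falls, beside 65.3% of all genes (33.1% higher, 32.2% lower). In the SKNO-1 ATRA, Corin and combined comparisons the count ranged from 1 to 5, 2 to 7 and 3 to 7 when 1 library was left out. The median log2 fold change of the 9 genes with both agents was 0.24 in SKNO-1, against 0.06 over all genes, and 1.33 in U-937, against 0.03. The 3 comparisons with DMSO in a line share its DMSO libraries.

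**Figure D2:**
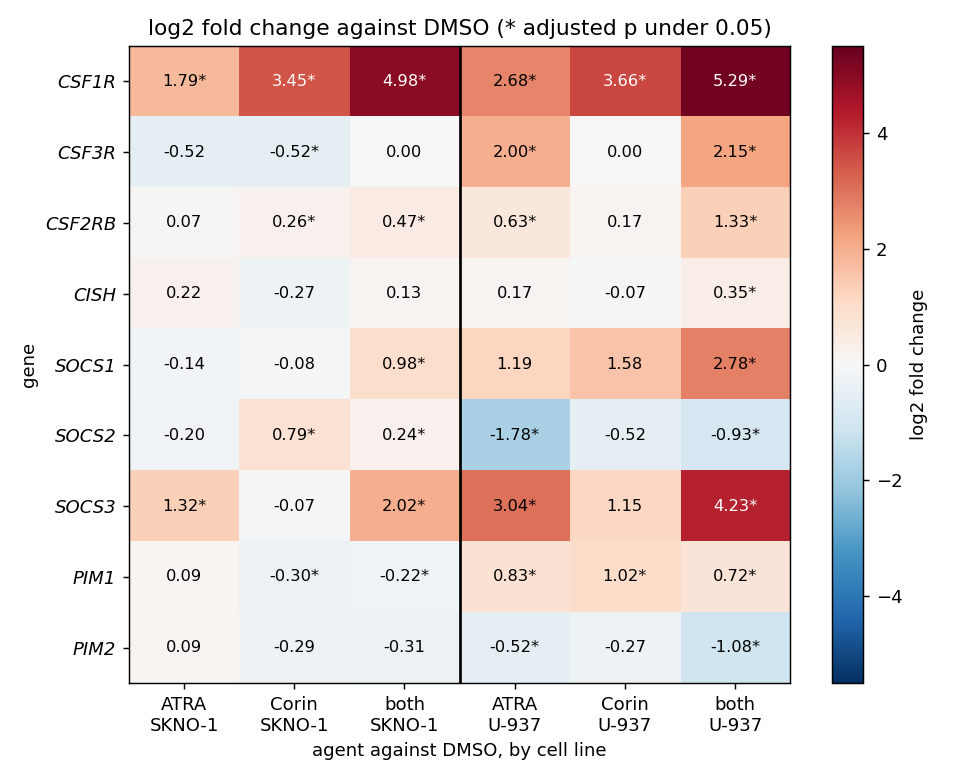
log2 fold change against DMSO (colour and printed value) for the 9 genes, by agent and cell line; an asterisk marks an adjusted p under 0.05. The CSF1R row is higher in all 6 comparisons, from 1.79 to 5.29, and with both agents SOCS2 and PIM1 have called values of opposite sign in the lines.

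CSF1R (ENSG00000182578.13, chromosome 5, 150053291 to 150113372, minus strand of GRCh38), the M-CSF receptor, rose in every treated group of both lines. SKNO-1 had 0.318 and 0.342 CPM with DMSO, 0.780 and 1.49 with ATRA, 4.10 and 3.14 with Corin, and 10.6 and 10.2 with both agents. U-937 had 0.689 and 0.916 CPM with DMSO, 5.05 and 5.19 with ATRA, 10.6 and 9.50 with Corin, and 31.5 and 31.2 with both. The 4 groups form the same ladder in each line and do not overlap.

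In SKNO-1 the log2 fold change of CSF1R was 1.79 with ATRA (SE 0.374, adjusted p = 0.0267), 3.45 with Corin (SE 0.335, adjusted p = 0.000194) and 4.98 with both (SE 0.323, adjusted p = 2.06e-05), the last a 31.5-fold rise. The ATRA call was lost without ATRA replicate 2, where the gene had the higher of its ATRA values. In U-937 the corresponding values were 2.68 (SE 0.203, adjusted p = 1.94e-10), 3.66 (SE 0.193, adjusted p = 1.33e-12) and 5.29 (SE 0.186, adjusted p = 3.19e-17), the last a 39.2-fold rise. Adding ATRA to Corin raised it 2.88-fold in SKNO-1 (adjusted p = 0.00784) and 3.11-fold in U-937 (adjusted p = 2.56e-10). In SKNO-1 this call was lost without any 1 of the 4 libraries compared (highest adjusted p = 0.0985). Even at its highest level CSF1R was a minor transcript per length in SKNO-1, at 2.31 TPM, against 7.54 TPM in U-937.

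CSF3R (ENSG00000119535.17, chromosome 1, 36466043 to 36483278, minus strand), the G-CSF receptor of the neutrophil lineage, followed ATRA in U-937. It had 55.4 and 45.6 CPM with DMSO and 52.2 and 48.9 with Corin, but 200.5 and 203 with ATRA and 243 and 207 with both agents. The libraries with ATRA lie at about the same height whether or not Corin was present, and those without ATRA likewise. It rose 3.99-fold with ATRA (log2 2.00, SE 0.111, adjusted p = 7.36e-13) and 4.45-fold with both (log2 2.15, SE 0.112, adjusted p = 3.69e-14). Corin alone gave a log2 fold change of 0.00 with a 95% interval of -0.23 to 0.23, and both agents against ATRA gave 0.16 (-0.06 to 0.38).

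SKNO-1 did not show this. Its CSF3R values were 88.5 and 61.7 CPM with DMSO, 51.8 and 52.8 with ATRA, 52.6 and 52.3 with Corin, and 72.7 and 77.7 with both. The DMSO libraries differ from each other more than the groups do, and the group with both agents lies between them. With Corin it fell to 0.699 of its DMSO level (log2 -0.52, SE 0.146, adjusted p = 0.0250), a call that was lost without either Corin library. ATRA gave a log2 fold change of -0.52 (adjusted p = 0.0852), which was called under 5 of 9 alternatives, among them leaving out either DMSO library. Both agents gave 0.00 with a 95% interval of -0.33 to 0.34, and the sign turned on the DMSO pair: the value was 0.27 (adjusted p = 0.000410) without DMSO replicate 1 and -0.24 (adjusted p = 0.000979) without replicate 2.

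CSF2RB (ENSG00000100368.14, chromosome 22, 36913628 to 36940439, plus strand) carries the signal of GM-CSF, IL-3 and IL-5. In U-937 it had 11.1 and 12.2 CPM with DMSO, 17.0 and 19.1 with ATRA, 12.7 and 13.5 with Corin, and 30.5 and 28.2 with both agents. ATRA and both agents stand clear of DMSO, and Corin sits just above it. The rise was 1.55-fold with ATRA (log2 0.63, SE 0.124, adjusted p = 0.000243) and 2.52-fold with both (log2 1.33, SE 0.123, adjusted p = 1.38e-09), while Corin gave a log2 fold change of 0.17 (adjusted p = 0.435).

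In SKNO-1 CSF2RB had 53.2 and 48.0 CPM with DMSO, 51.6 and 54.5 with ATRA, 61.3 and 59.4 with Corin, and 71.7 and 68.3 with both. Its range over all groups was narrow, and the ATRA libraries overlap DMSO. Both agents gave a 1.38-fold rise (log2 0.47, SE 0.074, adjusted p = 0.00150), which was lost when a GC trend was removed (adjusted p = 0.329). Corin gave 1.19-fold (adjusted p = 0.0284), lost without either Corin library. Even the highest U-937 library, at 30.5 CPM, stayed below the lowest SKNO-1 library.

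CISH (ENSG00000114737.15, chromosome 3, 50606489 to 50611774, minus strand), the SH2 protein that STAT5 induces and that dampens STAT5 signalling, hardly moved with either agent. SKNO-1 had 54.0 and 44.5 CPM with DMSO, 57.9 and 57.1 with ATRA, 39.7 and 42.0 with Corin, and 54.2 and 53.6 with both. U-937 had 11.7 and 12.6 CPM with DMSO, 13.2 and 14.1 with ATRA, 10.9 and 12.2 with Corin, and 16.2 and 14.9 with both. In each line Corin is the lowest group on average, overlapping DMSO in U-937, and the difference between lines is far wider than any treatment difference.

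The single CISH call against DMSO was with both agents in U-937, a 1.28-fold rise (log2 0.35, SE 0.132, adjusted p = 0.0223). It was lost under 4 of 9 alternatives, with adjusted p-values up to 0.142. In SKNO-1 the log2 fold changes were 0.22 with ATRA (95% interval 0.00 to 0.44), -0.27 with Corin (-0.49 to -0.05) and 0.13 with both (-0.09 to 0.35), none with an adjusted p under 0.05. Over the alternatives they ranged from 0.05 to 0.32, from -0.42 to -0.15 and from -0.05 to 0.26. ATRA and both agents were called without DMSO replicate 1, and Corin without DMSO replicate 2. Corin was also called with a GC trend removed, with other size factors and without the low-count filter. Reads of CISH could not be separated from those of MAPKAPK3, which overlaps it on the opposite strand, because the use of strand in counting is not given in the sources used here.

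SOCS2 (ENSG00000120833.14, chromosome 12, 93569814 to 93583487, plus strand), a STAT5 target that limits growth hormone and cytokine signalling, rose in SKNO-1 and fell in U-937 where it passed the test. SKNO-1 had 105 and 99.2 CPM with DMSO, 87.9 and 89.1 with ATRA, 178 and 175 with Corin, and 119 and 122 with both agents. U-937 had 11.1 and 10.4 CPM with DMSO, 2.70 and 3.58 with ATRA, 7.18 and 7.80 with Corin, and 4.94 and 6.39 with both. Corin is the highest group in SKNO-1, DMSO is the highest in U-937, and the replicates of a group are close in both.

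With Corin, SOCS2 rose 1.73-fold in SKNO-1 (log2 0.79, SE 0.056, adjusted p = 4.64e-05), and with both agents 1.18-fold (log2 0.24, SE 0.056, adjusted p = 0.00868), a call that was lost in DESeq2 and without either library that had both agents. ATRA alone gave -0.20 in SKNO-1 (adjusted p = 0.0791), which was called under 6 of 9 alternatives. In U-937 it fell 3.43-fold with ATRA (log2 -1.78, SE 0.191, adjusted p = 6.55e-08) and 1.90-fold with both (log2 -0.93, SE 0.182, adjusted p = 0.000106), while Corin gave -0.52 (adjusted p = 0.0570). Adding Corin to ATRA in U-937 raised it 1.80-fold (adjusted p = 0.000882).

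SOCS2 shares its locus with the antisense gene SOCS2-AS1, which was singled out after its values were seen. SOCS2-AS1 had 5.21 and 5.27 CPM in SKNO-1 DMSO, 19.1 and 18.2 with Corin, and 11.0 and 11.0 with both agents, and it rose by a log2 fold change of 1.83 with Corin (SE 0.108, adjusted p = 2.02e-05) and 1.07 with both (SE 0.108, adjusted p = 0.000166). In U-937 it stood at 1.06 and 0.882 CPM with DMSO and at 0.138 and 0.304 with ATRA, from 5 and 10 counts. That was a log2 fold change of -2.16 (SE 0.499, adjusted p = 0.00115). The antisense gene moved in the direction of SOCS2 in each of these groups, and both were below DMSO in U-937 with Corin and with both agents. In SKNO-1 with ATRA the signs differed, at 0.09 for SOCS2-AS1 (adjusted p = 0.768) and -0.20 for SOCS2, neither of them called. Without knowledge of the strand setting, reads of the pair could not be told apart.

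SOCS3 (ENSG00000184557.4, chromosome 17, 78356778 to 78360077, minus strand), the inhibitor of STAT3 signalling from CSF3R and the IL-6 receptors, rose with ATRA in both lines and most with both agents. SKNO-1 had 31.6 and 25.1 CPM with DMSO, 67.1 and 74.8 with ATRA, 28.3 and 25.8 with Corin, and 108 and 121 with both. U-937 had 0.282 and 0.271 CPM with DMSO, 1.99 and 2.58 with ATRA, 0.692 and 0.522 with Corin, and 4.88 and 5.53 with both. Corin alone left SKNO-1 within its DMSO range, and the ATRA and combined groups stand clear of all others in both lines.

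In SKNO-1 the rise of SOCS3 was 2.50-fold with ATRA (log2 1.32, SE 0.122, adjusted p = 0.000521) and 4.05-fold with both agents (log2 2.02, SE 0.123, adjusted p = 1.52e-05), and Corin gave -0.07 (95% interval -0.35 to 0.22). In U-937 it was 8.23-fold with ATRA (log2 3.04, SE 0.345, adjusted p = 1.55e-07) and 18.8-fold with both (log2 4.23, SE 0.331, adjusted p = 6.80e-11), and Corin gave 1.15 (SE 0.402, adjusted p = 0.0630). The U-937 folds start from 9 and 8 counts, and the highest U-937 library, at 5.53 CPM, was still below every SKNO-1 library.

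SOCS1 (ENSG00000185338.5, chromosome 16, 11254417 to 11256204, minus strand), which binds and blocks JAK kinases, was the sparsest of the feedback genes. SKNO-1 counts were 19 and 21 with DMSO, 18 and 17 with ATRA, 20 and 16 with Corin, and 30 and 41 with both agents. U-937 counts were 5 and 2 with DMSO, 10 and 8 with ATRA, 11 and 12 with Corin, and 26 and 23 with both. The group with both agents is the highest in each line.

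With both agents SOCS1 rose 6.86-fold in U-937 (log2 2.78, SE 0.596, adjusted p = 0.000271) and 1.97-fold in SKNO-1 (log2 0.98, SE 0.287, adjusted p = 0.0243). The SKNO-1 call was lost under 5 of 9 alternatives, with adjusted p-values up to 0.255. In U-937 SOCS1, like SOCS3, had under 10 counts in both DMSO libraries and passed the filter on low counts through its treated libraries, so that its being tested there is not independent of its rise. The same limit applies where the responses of the lines are compared for SOCS1 and SOCS3. SOCS1 overlaps RMI2 on the opposite strand, with the same doubt about strand as for CISH.

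PIM1 (ENSG00000137193.14, chromosome 6, 37170152 to 37175428, plus strand), the survival kinase and most abundant of the 9 genes per length in untreated SKNO-1, rose in U-937 and fell slightly in SKNO-1. U-937 had 46.7 and 52.3 CPM with DMSO, 81.9 and 94.6 with ATRA, 100.1 and 101 with Corin, and 80.3 and 82.5 with both agents. SKNO-1 had 383 and 342 CPM with DMSO, 368 and 401 with ATRA, 297 and 291 with Corin, and 305 and 316 with both. All treated U-937 libraries exceed both controls, but the combination is no higher than either agent alone.

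In U-937 the log2 fold change of PIM1 was 0.83 with ATRA (SE 0.102, adjusted p = 4.77e-07), 1.02 with Corin (SE 0.102, adjusted p = 8.43e-08) and 0.72 with both (SE 0.102, adjusted p = 1.43e-06). In SKNO-1 it was -0.30 with Corin (SE 0.071, adjusted p = 0.0123) and -0.22 with both (SE 0.071, adjusted p = 0.0339), and 0.09 with ATRA (95% interval -0.08 to 0.25). The Corin call was lost without either Corin library and the combined call without either library that had both agents.

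PIM2 (ENSG00000102096.9, chromosome X, 48913182 to 48919024, minus strand), the second kinase of the family, fell in U-937. Its values there were 26.0 and 31.2 CPM with DMSO, 19.6 and 20.4 with ATRA, 23.4 and 24.1 with Corin, and 12.7 and 14.3 with both agents. In SKNO-1 they were 25.3 and 21.4 CPM with DMSO, 23.1 and 26.6 with ATRA, 19.1 and 18.9 with Corin, and 18.1 and 19.4 with both. The combined group is the lowest in U-937, while in SKNO-1 the ATRA libraries overlap DMSO.

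The U-937 log2 fold change of PIM2 was -0.52 with ATRA (SE 0.119, adjusted p = 0.00104) and -1.08 with both agents (SE 0.122, adjusted p = 4.03e-08), a 2.12-fold fall, so PIM1 and PIM2 moved in opposite directions there. Corin alone gave -0.27 in U-937 (adjusted p = 0.148). In SKNO-1 the values were -0.29 with Corin (adjusted p = 0.0792) and -0.31 with both (adjusted p = 0.0547), neither of which passed the test. The first of these was called with a GC trend removed and without DMSO replicate 2, and the second under 5 of 9 alternatives.

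Whether the pair of agents did more than the sum of the single log2 effects was tested within each line. In U-937, 4 of 9 genes departed from additivity, 2 above and 2 below the sum, where 23.4% of all genes did (8.09% above, 15.3% below). In SKNO-1, 0 of 9 were called by edgeR, where 0.463% of all genes were (0.315% above, 0.149% below). Without SKNO-1 DMSO replicate 2 the count was 5. At an unadjusted p under 0.05, 4 SKNO-1 genes passed (CSF3R, SOCS1, SOCS2 and SOCS3), and DESeq2 called 2 of them, CSF3R and SOCS3. The share of all genes was not computed at that threshold, in DESeq2 or without that library. These counts therefore cannot be set against the 0.463%.

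CSF1R fell short of the sum in U-937, with 5.29 for both agents against a sum of 6.34 (difference -1.04, SE 0.254, adjusted p = 0.00345). This call was lost without U-937 DMSO replicate 1, with an adjusted p of 0.0545. PIM1 fell short as well, with 0.72 against a sum of 1.85 (difference -1.14, SE 0.143, adjusted p = 1.57e-06). SOCS2 was less repressed than the sum, with -0.93 against -2.30 (difference 1.37, SE 0.264, adjusted p = 0.000388). CSF2RB exceeded the sum, with 1.33 against 0.80 (difference 0.53, SE 0.173, adjusted p = 0.0265), a call that was lost under 5 of 13 alternatives. SOCS3 lay on its sum in U-937, with 4.23 against 4.19, and a 95% interval of the difference of -0.95 to 1.04.

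**Figure D3:**
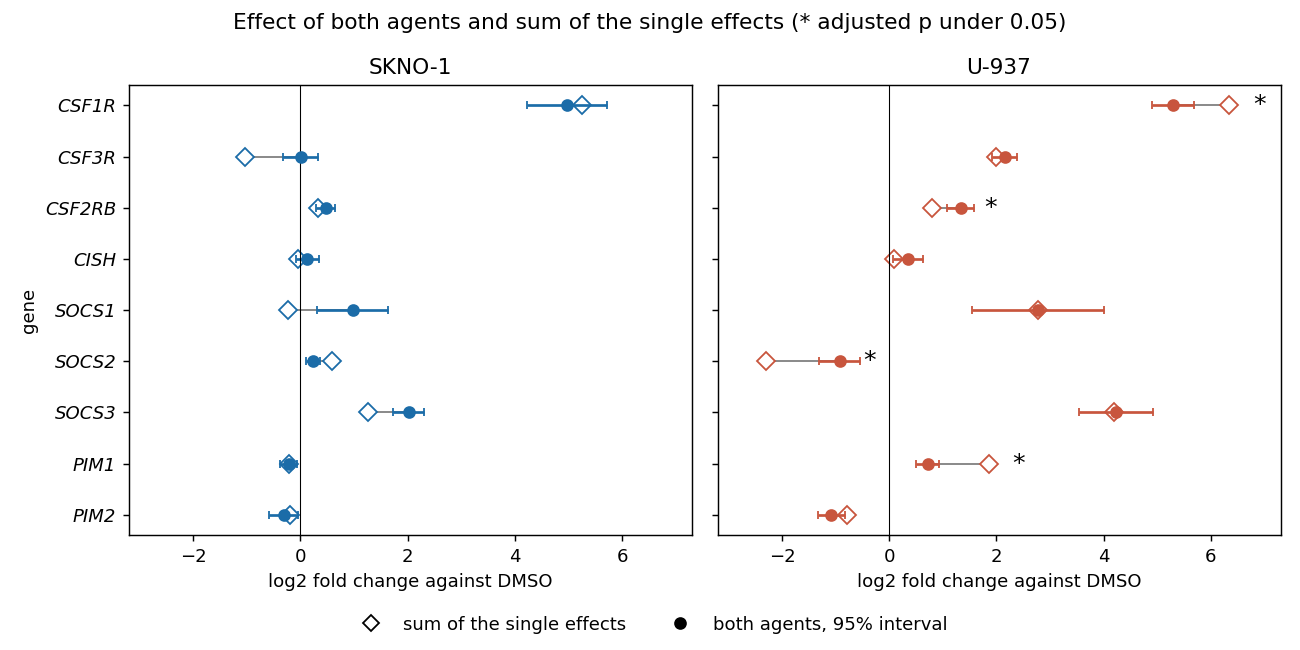
log2 fold change against DMSO for both agents (filled points with 95% intervals) and the sum of the single-agent log2 fold changes (open diamonds) for each gene and line; an asterisk marks a difference with an adjusted p under 0.05. In U-937 the filled point lies left of the diamond for CSF1R and PIM1 and right of it for CSF2RB and SOCS2.

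Against the single agents, the pair gave 8 calls over ATRA in SKNO-1, 6 rises and 2 falls, beside 44.8% of all genes (23% higher, 21.8% lower). That count was 4 to 7 when 1 library was left out, and lowest without ATRA replicate 2, where CSF3R, PIM1, PIM2 and SOCS1 were lost. Over ATRA in U-937 it gave 6, made up of 5 rises and 1 fall, beside 47.4% of all genes (22.5% higher, 24.8% lower). Over Corin it gave 4 calls in SKNO-1, 3 rises and 1 fall, beside 10.4% of all genes (4.82% higher, 5.6% lower), and the count was 2 when any 1 of the libraries compared was left out. Over Corin in U-937 it gave 8, with 6 rises and 2 falls, beside 60.5% of all genes (29.9% higher, 30.6% lower), and 5 without the first library that had both agents, where CISH, PIM1 and SOCS1 were lost. CSF1R and SOCS3 were higher than with either single agent in both lines. SOCS3 rose over ATRA alone by 0.69 in SKNO-1 (SE 0.118, adjusted p = 0.00214) and by 1.19 in U-937 (SE 0.248, adjusted p = 0.000336). The SKNO-1 call was lost when a GC trend was removed (adjusted p = 0.0876). Corin by itself gave -0.07 in SKNO-1 (95% interval -0.35 to 0.22) and 1.15 in U-937 (0.31 to 1.98), neither of them called.

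The responses of the lines were compared directly in a fit of all 16 libraries. For ATRA, 6 of 9 genes responded differently, 4 more positive and 2 more negative in U-937, where 19.4% of 19872 genes did (10.6% more positive, 8.81% more negative). CSF3R differed most, with a log2 response in U-937 larger by 2.55 (SE 0.181, adjusted p = 1.86e-08). SOCS3 followed with 1.75 (SE 0.330, adjusted p = 0.000731), and SOCS2 went the other way with -1.53 (SE 0.168, adjusted p = 2.27e-06).

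For Corin, 3 of 9 genes responded differently, against 12.8% of all genes (5.28% more positive, 7.49% more negative): PIM1 by 1.32 (SE 0.128, adjusted p = 9.86e-07), SOCS2 by -1.31 (SE 0.157, adjusted p = 1.19e-05) and SOCS3 by 1.22 (SE 0.386, adjusted p = 0.0445). The SOCS3 difference was lost under 9 of 13 alternatives. For both agents, 7 of 9 genes differed, 5 more positive and 2 more negative in U-937, against 40.6% of all genes (17.9% and 22.7%). The largest of these were SOCS3 with 2.26 (SE 0.311, adjusted p = 8.70e-06) and CSF3R with 2.19 (SE 0.180, adjusted p = 2.19e-08). CSF1R did not pass in any of the 3 tests. Its difference was 0.93 for ATRA (95% interval 0.01 to 1.85, adjusted p = 0.161), 0.20 for Corin (-0.66 to 1.07) and 0.36 for both (-0.50 to 1.21). The ATRA difference was called without SKNO-1 ATRA replicate 2 (adjusted p = 0.0298). CISH did not pass in any of them either, with -0.02 for ATRA (-0.33 to 0.30), 0.20 for Corin (-0.12 to 0.51) and 0.27 for both (-0.05 to 0.58).

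**Figure D4:**
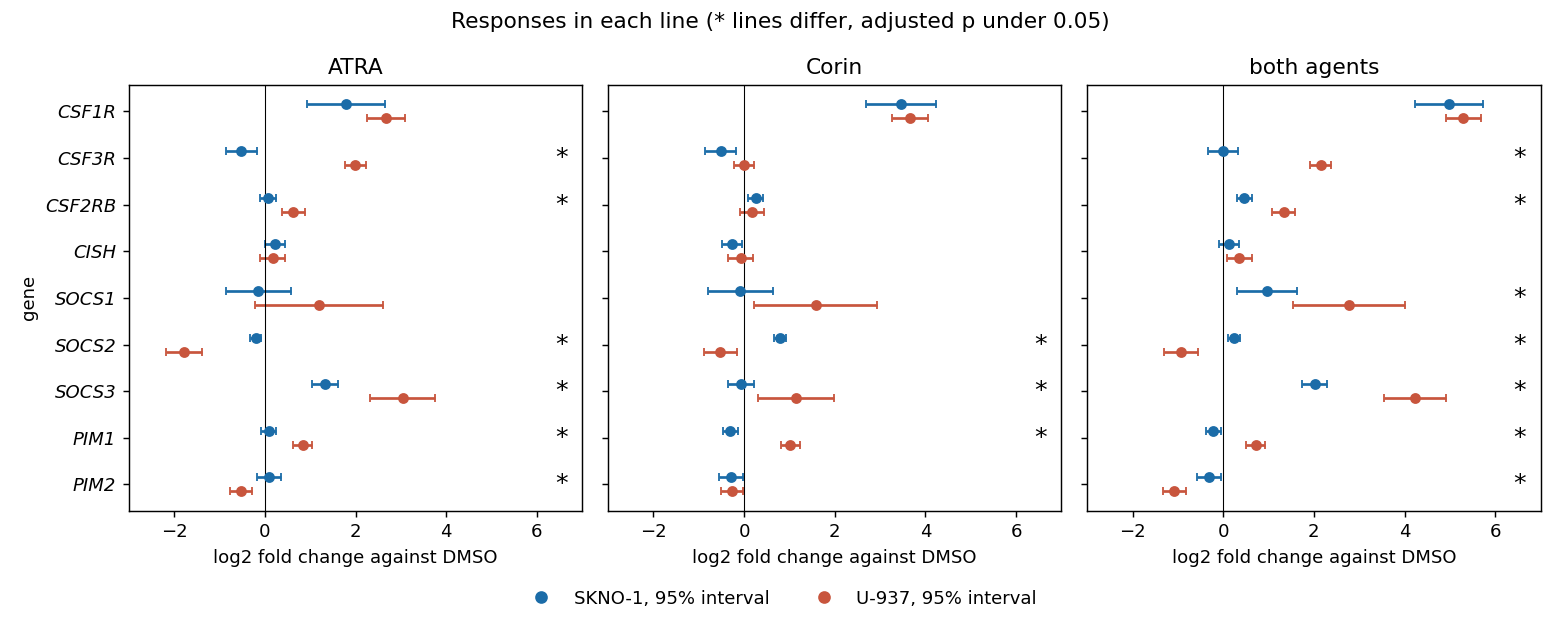
log2 fold change against DMSO of each gene in SKNO-1 and U-937 with 95% intervals, 1 panel per treatment; an asterisk marks a difference between the lines with an adjusted p under 0.05. CSF1R lies far to the right in both lines in all 3 panels, while with ATRA the U-937 points of CSF3R and SOCS3 lie beyond those of SKNO-1.

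The wider pathway was read from lists of further genes, whose results were not tested under the alternatives. The lists name 19 other receptors, 10 ligands, 11 JAKs and STATs, 15 other inhibitors and 10 other known STAT5 targets. Among the receptors, 17 could be tested in SKNO-1, and 12 were higher and 1 lower with Corin (median log2 fold change 0.38, against 0.00 over all genes), where 37.9% of all genes were called (20.5% higher). ATRA gave 2 rises and 4 falls (median -0.09), beside 6.76% of all genes. With both agents 10 rose and 2 fell, beside 46.7%. U-937 allowed a test of 16 receptors. Of these, 7 rose and 3 fell with ATRA (41.8% of all genes called), 9 rose and 1 fell with Corin (12.9%), and 11 rose and 1 fell with both (65.3%). The median with both was 0.74, against 0.03 over all genes.

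IL2RA, the alpha chain of the IL-2 receptor and a known STAT5 target, rose in SKNO-1 from 23.3 and 23.0 CPM with DMSO to 59.6 and 57.3 with ATRA (log2 1.34, SE 0.0717, adjusted p = 3.34e-05) and 109 and 106 with both agents (log2 2.21, SE 0.0728). IL4R fell in SKNO-1 with ATRA by 1.25 on the log2 scale (adjusted p = 0.00323), and IL6R rose with Corin by 1.14 (adjusted p = 0.000189). The IL-10 receptor chain IL10RA rose in U-937 from 10.7 and 10.1 CPM to 37.4 and 36.6 with ATRA (log2 1.83), 17.1 and 15.7 with Corin (0.65) and 74.7 and 68.0 with both (2.77, adjusted p = 4.79e-16). CSF2RA, the partner of CSF2RB in the GM-CSF receptor, rose in U-937 from 9.08 and 10.3 CPM to 19.2 and 19.8 with ATRA (log2 1.01, adjusted p = 1.25e-06) and 25.6 and 29.3 with both (1.50, adjusted p = 4.89e-10). Both chains of that receptor were thus higher in U-937 with ATRA and with both agents.

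Of the ligands, 4 could be tested in SKNO-1 and 2 in U-937. OSM, a cytokine of the IL-6 family and a known STAT5 target, fell in SKNO-1 from 17.2 and 10.3 CPM to 3.27 and 3.13 with ATRA (log2 -2.11, SE 0.239, adjusted p = 0.00152) and 2.34 and 2.70 with both agents (-2.45, SE 0.246, adjusted p = 0.000160), so it went against SOCS3 there. LIF, of the same family, rose in SKNO-1 with Corin from 4.63 and 4.13 CPM to 16.5 and 15.1 (log2 1.85, adjusted p = 9.35e-05).

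Of the 11 JAK and STAT genes, 9 had a more positive response to both agents in U-937 than in SKNO-1 by the test of that difference, where 40.6% of all genes differed. For ATRA 7 did, beside 19.4% of all genes, and for Corin 1 did, beside 12.8%. In SKNO-1 all 11 were tested against DMSO, and 3 fell with ATRA (6.76% of all genes called), while 1 rose and 4 fell with both agents (46.7%). In U-937, where 10 were tested, 6 rose with ATRA (41.8%) and 8 with both agents (65.3%; median log2 fold change 0.78, against 0.03 over all genes). JAK2, the kinase used by CSF2RB, had 32.8 and 42.1 CPM in SKNO-1 with DMSO and 22.4 and 22.1 with both agents. That was a fall of 0.75 on the log2 scale (adjusted p = 0.00137). In U-937 JAK2 rose with both agents from 25.5 and 24.6 to 87.7 and 91.6 CPM (log2 1.84, adjusted p = 1.47e-13). With Corin alone it fell in both lines, by 0.44 in SKNO-1 (adjusted p = 0.0189) and by 0.51 in U-937 (adjusted p = 0.00171). The difference between the lines in the JAK2 response to both agents was 2.64 (SE 0.159, adjusted p = 2.04e-10). STAT5A, by contrast, did not pass the test in any comparison of an agent with DMSO, with log2 fold changes from -0.12 to 0.03.

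Among the 15 other inhibitors, ATRA gave 1 rise in SKNO-1 (6.76% of all genes called), and 4 rises and 3 falls in U-937 (41.8%). Corin gave 4 rises and 4 falls in SKNO-1 (37.9%), and 1 rise and 1 fall in U-937 (12.9%). Both agents gave 5 falls in SKNO-1 (46.7%), and 6 rises and 3 falls in U-937 (65.3%). Only for both agents was the share called no higher than among all genes in each line. DUSP6, a phosphatase of ERK, rose in U-937 from 37.1 and 42.7 CPM to 114 and 101 with ATRA (log2 1.43, adjusted p = 2.12e-10) and to 197 and 209 with both agents (2.35, adjusted p = 7.16e-15), and in SKNO-1 it fell with both by 0.55 on the log2 scale (adjusted p = 0.000211). Of the 10 other STAT5 targets 9 were tested in each line, and both agents gave 3 rises and 4 falls in SKNO-1 (46.7% of all genes called), and 5 rises and 3 falls in U-937 (65.3%). ID1 rose with both agents by 2.43 on the log2 scale in SKNO-1 (adjusted p = 2.77e-05). Its rise in U-937 was 4.98 (adjusted p = 1.35e-11), from under 1 CPM with DMSO. MYC fell in U-937 from 220 and 208 CPM to 40.0 and 38.3 with ATRA (log2 -2.45, adjusted p = 2.43e-15) and 4.41 and 4.71 with both agents (-5.55, adjusted p = 1.19e-20). BCL2L1, the gene for the survival protein BCL-XL, had 61.0 and 46.7 CPM in SKNO-1 with DMSO. It fell there with Corin by 0.71 on the log2 scale (adjusted p = 0.00290) and with both agents by 0.76 (adjusted p = 0.00157).

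For each member, the protein-coding gene with the most similar profile was found among 8897 genes with at least 5 CPM on average in each line, by Pearson correlation of log2 CPM over the 16 libraries after removal of each line's mean. These libraries share 8 treatment groups of 2, so the values are a description. SOCS3 was closest to FAM117A (r = 0.985), CSF2RB to SAT1 (0.982), CSF1R to BTN3A3 (0.978), CSF3R to the lysosomal protease gene CTSD (0.971) and PIM2 to RNASEH1 (0.971). CISH was closest to EHBP1L1 (0.931), SOCS2 to CBWD2 (0.921) and SOCS1 to VMP1 (0.918). PIM1 had the weakest best match, TSR2 (0.863), with 0.641 within SKNO-1 and 0.900 within U-937. The next weakest within SKNO-1 were the matches of SOCS1 (0.717), SOCS2 (0.790) and CSF3R (0.791). Within U-937 these had 0.966, 0.964 and 0.983.

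The authors' deposited tables of their own DESeq2 comparisons with the control gave fewer calls among the 9 genes in SKNO-1. At an adjusted p under 0.05, the authors' deposited table for ATRA held 1 of 9 in SKNO-1 and 7 of the 8 with an adjusted p in U-937. That for Corin held 3 of 9 and 2 of 7, and that for both agents 3 of 9 and 8 of 9, in the authors' deposited table of each line. The share of all genes under that threshold in the authors' deposited tables was not computed, so these counts have no background beside them. CSF1R with ATRA in SKNO-1 had a log2 fold change of 1.77 and an adjusted p of 0.293 in the authors' deposited table, against 0.0267 in the fit used here. CISH with both agents in U-937 had 0.33 and an adjusted p of 0.154 in the authors' deposited table.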

How the data were processed

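The labels' protocols give paired-end sequencing (100 bp) of ribosome-depleted total RNA, while the names of the deposited data mark single-end reads. Which of these holds was not settled here. The authors deposited expected counts per gene for 60603 genes and TPM from RSEM, on hg38 per the submitters' processing notes, which also name Trimmomatic, STAR and DESeq2 without versions. The authors also deposited tables of log2 fold changes and adjusted p-values from their own comparisons. Whether counting used strand, and the annotation release, are not given in the sources used here. Of the positive expected counts 20.4% were not whole, and all were rounded here.

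Totals were 28.4 to 37.8 M counts per library. Genes were filtered with filterByExpr, scaled by TMM and tested with edgeR 4.0.16 (quasi-likelihood, robust; R 4.3.3, limma 3.58.1), p-values adjusted by Benjamini-Hochberg over all genes kept, with a call at an adjusted p under 0.05. Each line was fitted alone (8 libraries, 4 residual degrees of freedom), and all 16 libraries together for comparisons between lines. CPM values use the scaling of the line's own fit. SE is the unshrunk log2 fold change over the root of F, and intervals are 95%. A check on simulated counts covered only ATRA against DMSO, with known changes in well-expressed genes. It held no GC-linked spread like that of the SKNO-1 DMSO pair, and no test of additivity or between lines. TPM served only to order genes within a group. The added spike-in RNA had 0 entries in the table, so no scaling on it was made. Alternatives were size factors in place of TMM, no low-count filter, the replicate number as a block, removal of a GC trend, DESeq2 1.42.0 and leaving out each library.

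The 9 genes and the pathway lists were chosen with earlier results of these data known. Of each list, the genes named with values were the 2 with the largest absolute log2 fold change among those called, at 5 CPM or more on average, in each comparison of an agent with DMSO. STAT5A, STAT5B, CSF2 and SOCS2-AS1, and the differences between lines for CSF2RA and JAK2, were named outside this rule, after their values were seen. Not every gene that the rule names is printed.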

Additional observations from a re-analysis of the deposited data

Results flagged for a closer look

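Each gene below had a response that differed between the lines by a test of the difference itself (U-937 minus SKNO-1, log2, edgeR with Benjamini-Hochberg adjustment over 19872 genes). GM-CSF was in the SKNO-1 medium alone, so that line and medium cannot be told apart in any of them.

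For ATRA, the receptor CSF3R differed by 2.55 and CSF2RB by 0.60 (SE 0.138, adjusted p = 0.00416). The CSF2RB value lost its call under 4 of 13 alternatives (highest adjusted p = 0.0644). Among the feedback genes, SOCS3 differed by 1.75 and SOCS2 by -1.53. The kinase PIM1 differed by 0.785 (SE 0.128, adjusted p = 0.000189). PIM2 went the other way by -0.57 (SE 0.166, adjusted p = 0.0190), and lost its call under 3 of 13 alternatives (highest adjusted p = 0.0858).

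For Corin, PIM1 differed by 1.32, SOCS2 by -1.31 and SOCS3 by 1.22. The SOCS3 value lost its call under 9 of 13 alternatives, with adjusted p-values up to 0.303.

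For both agents, CSF3R differed by 2.19, CSF2RB by 0.91 (SE 0.137, adjusted p = 2.57e-05), SOCS3 by 2.26 and SOCS2 by -1.13 (SE 0.161, adjusted p = 1.28e-05). PIM1 differed by 0.98 (SE 0.128, adjusted p = 4.38e-06) and PIM2 by -0.73 (SE 0.169, adjusted p = 0.00178). SOCS1 differed by 1.85 (SE 0.619, adjusted p = 0.0224) and lost its call under 4 of 13 alternatives, with adjusted p-values up to 0.126.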

How the results depend on the processing

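Of 144 results for the 9 genes, 85 passed the test, and 57 of these passed under every alternative run (9 of 25 in SKNO-1, 29 of 36 in U-937, 7 of 8 between untreated lines, 12 of 16 response differences). No called result changed direction, and 26 of the 59 others passed somewhere. CSF3R with both agents in SKNO-1, 0.00, was -0.18 with a GC trend removed (adjusted p = 0.0162), and -0.24 to 0.27 when 1 library was left out. For ATRA in SKNO-1 the count of genes called, 2, became 4 without the low-count filter, 4 with the GC trend removed and 4 in DESeq2. For additivity in SKNO-1, 0 became 2 under each of these 3. The share of all genes called was not computed under any alternative. The fit with the replicate block gave 1 for ATRA in SKNO-1, and moved no other count by over 1.5 times. Under it 5 calls were lost: in SKNO-1 CSF1R with ATRA, PIM1 with both agents and CISH for both against Corin, in U-937 SOCS1 for both against Corin, and the SOCS3 response difference for Corin. Correlations between the deviations of same-numbered libraries ran from -0.488 to 0.236 in SKNO-1 and -0.447 to 0.418 in U-937, with 1 and 2 of 6 pairs over 0.1, so the numbers were not taken as pairing the libraries.

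Leaving out 1 library gave 1 to 5 calls for ATRA, 2 to 7 for Corin, 3 to 7 for both agents, 4 to 7 for both against ATRA, 2 to 2 for both against Corin and 0 to 5 for additivity in SKNO-1, and 5 to 8 for both against Corin in U-937. A group then holds a lone library that is assumed to vary like the others. Depth limits SOCS1, with 2 to 41 counts per library, and SOCS3 in untreated U-937.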
